A study of Mus musculus with 3 samples.

Results

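Transcripts of 9 lysosomal protease genes were followed across the leukocytes of mouse lung: the cathepsin genes Ctsb, Ctsc, Ctsd, Ctsh, Ctsk, Ctsl, Ctss and Ctsz, and Lgmn, which encodes legumain. The genes were chosen by symbol, and all 9 were found among the 32285 genes of each of 3 single-cell RNA-Seq libraries. The labels give the strain of every library as C57BL/6J, while the methods list the CD45.1 mice as a separate congenic B6 strain. One library came from left lungs of naive mice, and the others came from transplanted left lungs, where the donor was B6 (CD45.2) and the recipient B6 (CD45.1), taken 2 hours or 3 days after reperfusion. Both transplant groups had 60 minutes of graft storage at 4 °C and 45 minutes at 28 °C before reperfusion, which the naive lungs did not have. Each library held cells pooled from 2 mice and sorted by flow cytometry after staining for CD45.1 and CD45.2. The study sorted recipient cells from the grafts, so the macrophages that came with the donor lung lay outside the gate. The gate used for the naive lungs was not given in the sources used here.

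Cathepsins and legumain are made as inactive precursors and become active in the acid of endosomes and lysosomes, where they digest proteins taken up by the cell. Most cathepsins are cysteine proteases, whereas cathepsin D is an aspartic protease, and legumain cuts after asparagine and matures several of the others. In macrophages they clear debris and surfactant protein, in antigen-presenting cells they trim the invariant chain that guards MHC class II, and secreted forms cut extracellular matrix.

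Each group was 1 library, so no test across mice could be made and no p-value is given. Intervals are 95% intervals of counting error and hold nothing of the variation between mice or preparations. Levels are CPM, the unique molecular identifiers (UMIs) of a gene per 1000000 UMIs of the cells named. A UMI marks 1 captured RNA molecule whatever its length, so CPM was not divided by gene length. Ratios compare levels of the same gene. Where genes are set beside each other, as in shares of the 9 genes, UMIs as counted are meant. The kept cells numbered 2422, 10283 and 8324 in the naive, 2-hour and 3-day libraries, with a median of 7298.5, 878 and 5716.5 UMIs. Pairs of libraries shared between 1 and 23 cell barcodes. Since the naive counts were written by Cell Ranger 7.1.0 and the others by Cell Ranger 6.0.0, a contrast with the naive library and a difference in counting software cannot be told apart. In macrophages, genes with under 10 kb of intron took 42.6% of the UMIs of the naive library and 57.2% at 3 days. Dividing by the UMIs of those genes only, in place of all UMIs, moved every macrophage log2 ratio of 3 days to naive by -0.42. That setting is called short-intron scaling below. It left the counts of the 9 genes themselves as they were. Of these, Ctsd, Ctsk and Ctsl have under 10 kb of intron, and the others have from 10.1 kb (Ctsz) to 43.4 kb (Lgmn). Any UMIs from their introns were not removed.

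Clusters of cells were named from marker genes, without the 9 genes among the features, and such names stand for macrophage-like, monocyte-like cells and so on. The naive, 2-hour and 3-day libraries held 108, 5 and 800 macrophages, and no level is given for the 5 cells. The naive macrophages were almost wholly an alveolar macrophage cluster (cluster 28, 102 cells, led by Kcnip4, Lpl, Plet1, Atp6v0d2 and Ear1). Macrophages at 3 days fell into a recruited macrophage cluster (cluster 10, 637 cells, led by Saa3, Arg1, Serpinb2, Ccl24 and Cxcl1) and a C1q macrophage cluster (cluster 26, 163 cells, led by Fcrls, C1qb, Ms4a7, C1qa and Spp1). Only 6 naive cells lay in the C1q cluster. The markers of the 2 names overlapped. Cluster 10 had a median log2 ratio of 2.20 for the recruited list and 2.01 for the C1q list. In cluster 26 these medians were 0.89 and 3.68. At 3 days C1qa stood at 944 CPM in cluster 10 and 2701 CPM in cluster 26, and Spp1, of the recruited list, at 1142 and 3566 CPM. Monocytes at 3 days formed a classical cluster (cluster 7, 763 cells, led by Chil3, Vcan, Plac8, Ms4a6c and Lyz2) and a nonclassical cluster (cluster 16, 435 cells, led by Cd300e, Ace, Eno3, Ear2 and Slc12a2). Naive monocytes were 1 cluster (cluster 27, 137 cells, with Adgre4, Vcan, Clec4a1 and F13a1 among its leading genes) with markers of both kinds.

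At 2 hours the cells nearest to monocytes were 435 cells of cluster 15, led by Ace, Nupr1, Ear2, Apoc2 and Fabp4. Their closest list was that of nonclassical monocytes, with a median log2 ratio of 2.08 to the other cells and 8 markers over 1. The cluster stayed unnamed, because its 10 top genes held more alveolar macrophage markers than monocyte markers. Defining macrophage genes were at or near 0 in it, with 0 UMIs of Marco, Folr2, Mertk, Arg1 and Mmp12 and 1 UMI each of C1qa, C1qb and C1qc. It is set beside the named monocytes by its number, with 3 cells of named monocyte clusters, a choice made after its marker values were seen. "Monocytes at 2 hours" below means these 438 cells.

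Promoter sequence was looked up because many lysosomal genes carry a CACGTG core near their start, a motif bound by the transcription factors Tfeb, Tfe3 and Mitf. RefSeq promoter windows of the build GRCm38.p6, from 250 bases before to 50 after the start, were found for 7 genes (8 windows, Lgmn having 2 starts). Ctsb and Ctsh had no entry. On both strands, CACGTG stood in 3 of the 8 windows (37.5%) and in 7.15% of all 32851 windows of that length. The longer TCACGTG, which holds CACGTG and so counts the same places, stood in 2 of 8 and in 3.77% of all. TCATGTG was found in 1 window of 8, that of Ctss, and in 3.77% of all. GAGGAAGT, a form of the motif of the myeloid factor PU.1, stood in 2 of 8, those of Ctsc and Ctss, and in 3.20% of all. No window of Ctsk or Ctsz held any of these letters. The matches before the start site are printed with the motif in capitals, 5′ to 3′ on the strand of the gene, since the macrophage results turn on Ctsd, Ctsl and Lgmn among others, and Ctsc differed most in neutrophils:
Ctsd, chr7:142388048-142388077, minus strand, outside annotated genes: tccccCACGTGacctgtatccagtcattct
Ctsd, chr7:142387908-142387937, minus strand, in an exon of some Ctsd transcript: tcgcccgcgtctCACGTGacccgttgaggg
Lgmn, chr12:102439124-102439153, minus strand, in a Lgmn intron downstream of its other start: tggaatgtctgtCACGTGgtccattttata
Ctsl, chr13:64370739-64370768, minus strand, in an exon of some Ctsl transcript: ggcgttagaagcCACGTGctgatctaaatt
Ctsc, chr7:88277923-88277952, plus strand, GAGGAAGT on the other strand, outside annotated genes: gtcactaactaACTTCCTCaggccacctcg
Ctsk and Ctss are neighbours on chromosome 3, at 95499256 to 95509362 and 95526786 to 95556403 on the plus strand in GENCODE vM21. Their spans are 17.4 kb apart with no gene lying wholly between them, and both promoter windows were without CACGTG.

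The 9 genes together were highest in macrophages, at 7782 CPM in the naive library and 11128 CPM at 3 days. Monocytes followed with 4425, 3814 and 4874 CPM in the naive, 2-hour and 3-day libraries. Neutrophils held 1040, 989 and 1654 CPM, B cells 807, 699 and 1094, NK cells 733, 482 and 1058, and T cells 364, 325 and 612 CPM. Macrophages and monocytes thus stood above all other lineages in every library that had both. Between neutrophils, B cells and NK cells the ranges over the 3 libraries overlapped. The highest of 17 lineage and library sums was macrophages at 3 days for Ctsb, Ctsc, Ctsl, Ctsz and Lgmn, and naive macrophages for Ctsd, Ctsk and Ctss. Ctsh was highest in monocytes at 3 days.

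**Figure D1:**
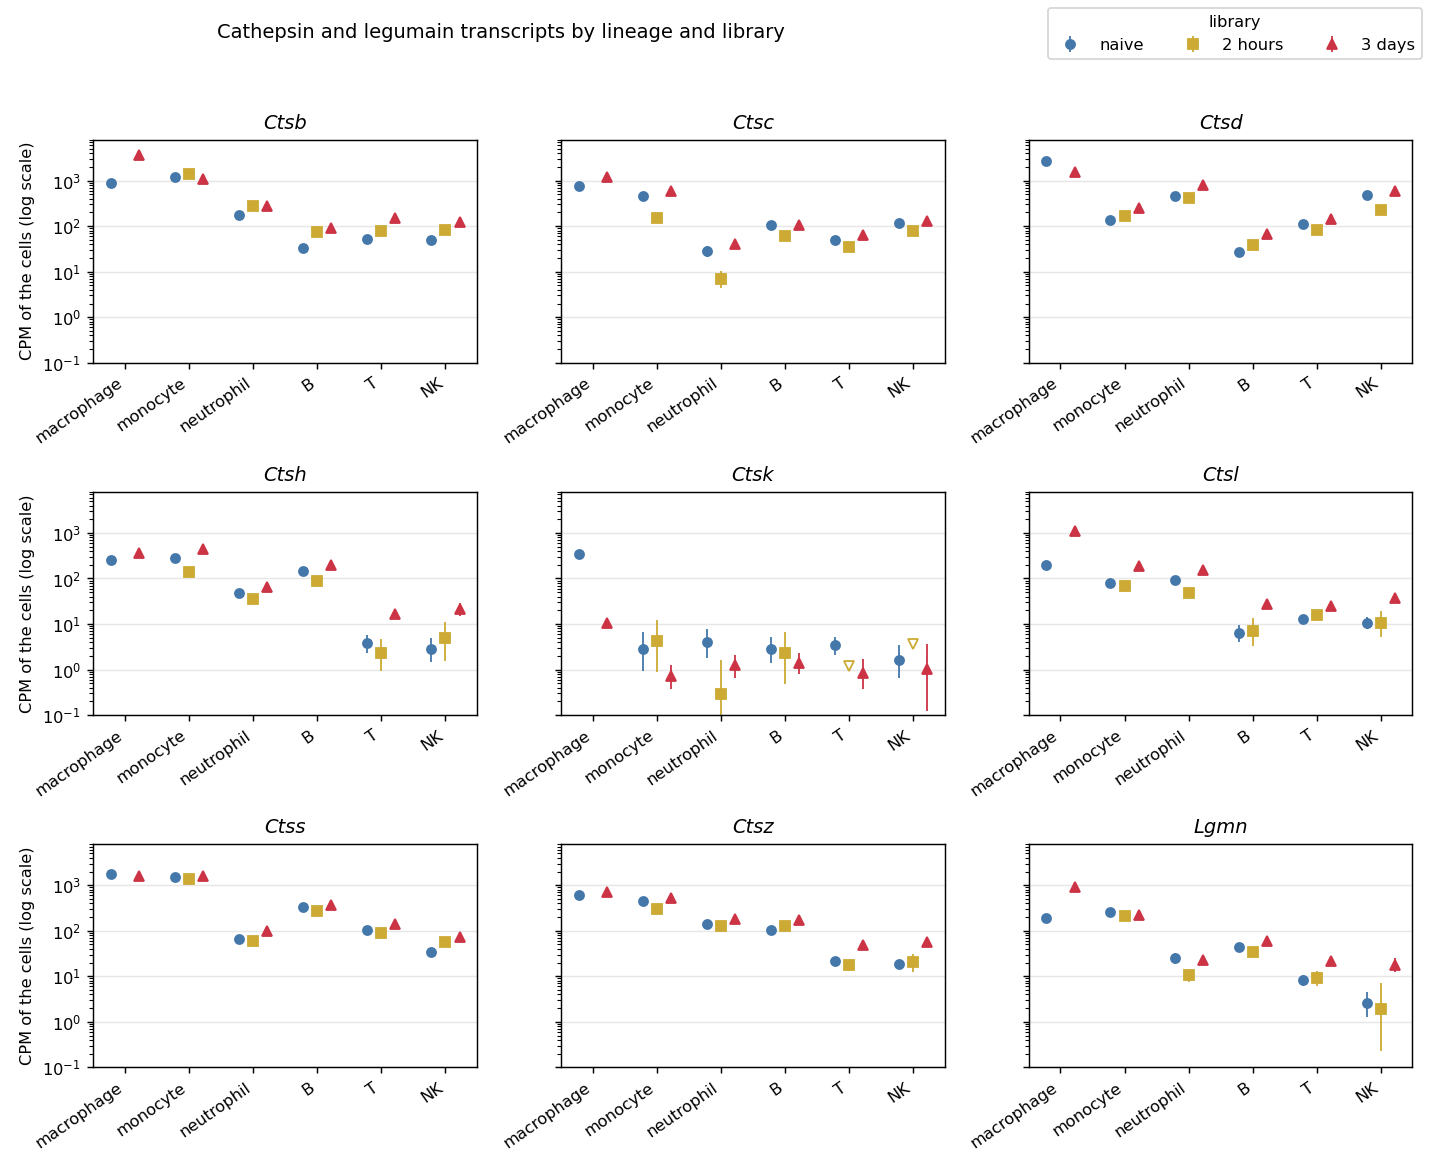
CPM (log scale) of each of the 9 genes in 6 lineages; circles, squares and triangles are the naive, 2-hour and 3-day libraries, lines are 95% counting intervals, some of which run below the axis, and open triangles are upper bounds where no UMI was found. Ctsk stands at 350.2 CPM in naive macrophages and at 10.6 CPM or below in every other sum.

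In macrophages the question was how protease transcripts of recipient cells in a 3-day graft compare with those of the resident cells of a naive lung. Ctsb, Ctsl and Lgmn were higher at 3 days, Ctsk was far lower, and the others lay within 2-fold. Called here means more than 2-fold apart, for genes whose mean reached 10 CPM over both libraries on 20 or more UMIs, and in macrophages all 9 genes were past that filter. Of the 9 genes, 3 were called higher and 1 lower. Among 7953 genes of the same contrast, 34.9% were called, 11.4% as higher and 23.6% as lower, and the median log2 ratio was 0.52 for the 9 genes and -0.23 for all.

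The genes called higher were Ctsb, Ctsl and Lgmn. Ctsb, whose product is an endopeptidase that also removes dipeptides from protein ends, stood at 902 CPM in the naive library and 3681 CPM at 3 days, a log2 ratio of 2.03 (1.96 to 2.10). Ctsl, whose product also matures other hydrolases, stood at 197 and 1084.5 CPM (log2 ratio 2.46, 2.32 to 2.61). Lgmn stood at 187 and 917 CPM (2.30, 2.15 to 2.45). All 3 stayed past 2-fold with short-intron scaling. With each cell thinned to 500 UMIs, 29.6% of naive macrophages and 80.0% of those at 3 days had a Ctsb UMI, against 99.1% and 99.9% without thinning. T cells, which should hold little of it, had a Ctsb UMI in 2.43% and 5.61% of thinned cells. Median depths were 19729.5 and 10944 UMIs in macrophages and 9844 and 8370 UMIs in T cells.

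Ctsk encodes a collagen- and elastin-cutting protease best known from osteoclasts. Its level was 350.2 CPM in naive macrophages (325 to 377) and 10.6 CPM at 3 days (8.63 to 12.9), a log2 ratio of -5.04 (-5.36 to -4.74) or 33.0-fold lower. It was found in 85.2% of naive macrophages and 8.38% of those at 3 days. In monocytes, neutrophils, B, T and NK cells Ctsk lay between 0 and 4.23 CPM, with no UMI in T and NK cells at 2 hours, where 3 UMIs would be 0.964 and 2.89 CPM. Of the 99 UMIs at 3 days, 93 lay in the recruited cluster. Over the 17 sums, the genes closest to Ctsk by Pearson's r of log2(CPM + 10) were Rnf180 (0.991), Plet1 (0.988) and Atp6v0d2 (0.986), of which Plet1 and Atp6v0d2 were also among the leading genes of the alveolar macrophage cluster. These sums share libraries, and 1 of them holds nearly all of the Ctsk signal.

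Ctsd, the aspartic protease gene, went the other way within 2-fold, with 2752 CPM in naive macrophages and 1555 CPM at 3 days (log2 ratio -0.82, -0.87 to -0.78). Short-intron scaling takes it past 2-fold. Its share of the UMIs of the 9 genes was 35.4% and 14.0%, while that of Ctsb was 11.6% and 33.1%. Ctss, whose product works at neutral pH as well and trims the invariant chain, was nearly level at 1781 and 1627 CPM (-0.13, -0.18 to -0.08). The other 3 genes lay within 2-fold. Ctsz, a carboxypeptidase gene, stood at 596 and 705 CPM (0.24, but -0.18 with short-intron scaling). Ctsh, an aminopeptidase gene, stood at 251 and 359 CPM (0.52), and Ctsc, whose product removes dipeptides and activates granule serine proteases, at 766 and 1189 CPM (0.63).

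Summed over the 9 genes the log2 ratio was 0.52 (0.49 to 0.54), but 0.09 with short-intron scaling, so the sum is not read as a difference. With the upper limits on genes and UMIs per cell 108 naive macrophages were kept, and without them 279. Without the limits the alveolar cluster held 271 cells with 431 CPM of Ctsk, 3036 CPM of Ctsd and 909 CPM of Ctsb. Because the naive and 3-day macrophages lay in different clusters, the library and the kind of macrophage cannot be told apart in this contrast.

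**Figure D2:**
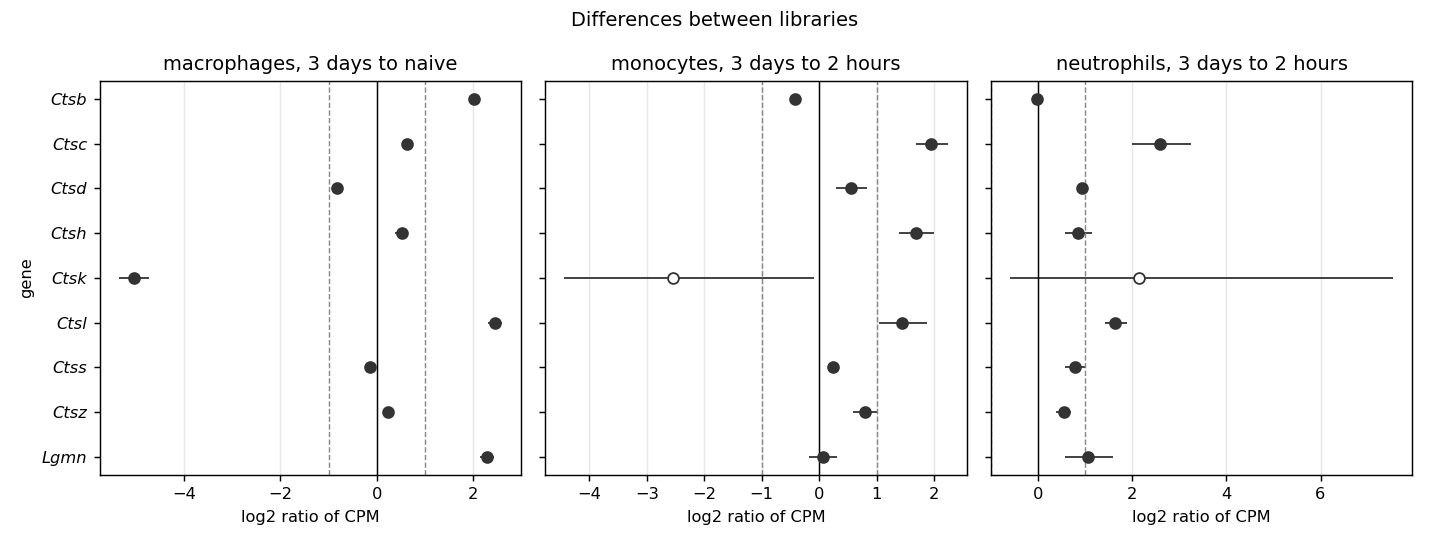
Log2 ratios of CPM between libraries for each gene in macrophages (3 days to naive), monocytes and neutrophils (3 days to 2 hours); lines are 95% counting intervals, dashed lines mark 2-fold, and open points did not pass the filter on low values. Ctsk stands apart in macrophages at -5.04, and Ctsc is the most raised gene of those that passed in both other lineages.

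Set against the naive alveolar cluster, the recruited cluster had Ctsb, Ctsl and Lgmn called higher and Ctsk lower of 9 genes. Of all genes there, 35.8% were called, 11.8% as higher and 24% as lower. The C1q cluster had 5 called higher, Lgmn first (3.33, 3.17 to 3.50), and Ctsd (-1.69) and Ctsk (-7.30) lower. In that contrast 38.7% of genes were called, 11.4% as higher and 27.3% as lower. The lowest log2 ratio of the 5 genes called higher in the C1q cluster was 1.09, and these contrasts with the naive cluster are given without short-intron scaling. Both 3-day macrophage clusters came from 1 library, so that counting software was the same for them. Their median UMIs per cell were 9950 (recruited) and 16834 (C1q). Their summed levels were close, at 11238.5 CPM in the recruited cluster and 10844 CPM in the C1q cluster, but their make-up differed. Ctsd was higher in the recruited cluster, with 1821 against 874 CPM (log2 ratio 1.06, 0.99 to 1.12). Lgmn was higher in the C1q cluster, with 1700 against 611 CPM (recruited to C1q -1.48, -1.54 to -1.41). These were the 2 genes called among the 8 that passed the filter, where 13.9% of 7333 genes were called. Ctsb (4139 and 2509 CPM) and Ctsl (1237 and 692 CPM) leaned to the recruited cluster within 2-fold. Without the upper limits on genes and UMIs, the recruited and C1q clusters held 669 and 239 cells. Ctsb was then just past 2-fold (4006 and 1992 CPM), and Ctsl still within it (1176 and 605 CPM). Ctsh (283 and 555 CPM), Ctss (1396 and 2219 CPM) and Ctsc (1036 and 1579 CPM) leaned to the C1q cluster, also within 2-fold. Ctsz was level at 702 and 713 CPM.

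Set against classical monocytes of the same library, both macrophage clusters held more Ctsb, Ctsd, Ctsl and Lgmn. In the recruited cluster 4 of 8 genes were called higher than in cluster 7 and none lower, where 26.2% of genes were called and 14.6% as higher. They were Ctsd at 1821 against 266 CPM (2.78), Ctsl at 1237 against 226 CPM (2.45), Ctsb at 4139 against 790 CPM (2.39) and Lgmn at 611 against 210 CPM (1.54). The C1q cluster had 5 of 8 called higher, with Ctsc (1579 against 696 CPM) besides those 4, where 10.3% of genes were called higher. The largest difference there was Lgmn (log2 ratio 3.02, 2.95 to 3.09). Ctss and Ctsz lay within 2-fold of the monocytes in both clusters. Ctsh was lower in the recruited cluster, at 283 against 492 CPM within 2-fold, and close to the monocytes in the C1q cluster.

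**Figure D3:**
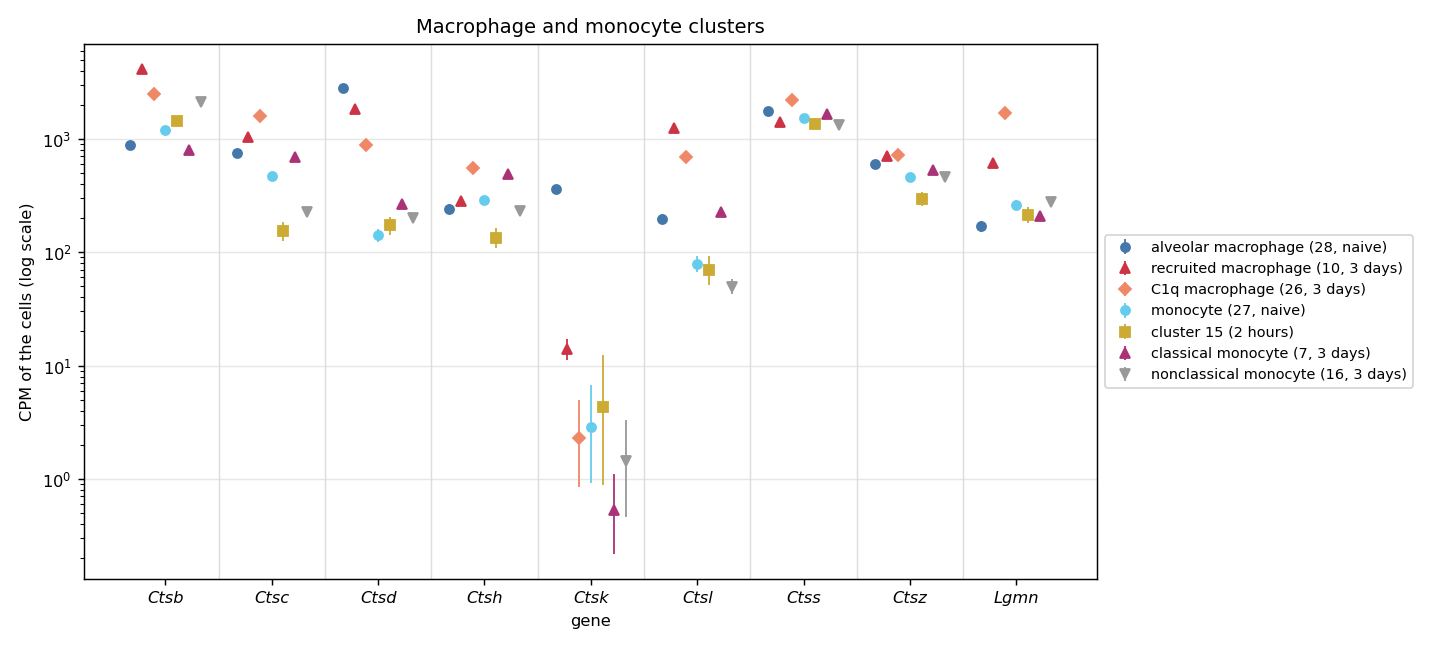
CPM (log scale) of the 9 genes in macrophage and monocyte clusters, with the cluster number and library in brackets; lines are 95% counting intervals. Lgmn is highest in the C1q macrophages (1700 CPM), Ctsb and Ctsl in the recruited macrophages (4139 and 1237 CPM), and Ctsd and Ctsk in the alveolar macrophages (2819 and 360.3 CPM).

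Monocytes address what recipient cells entering the graft express early and late, and both libraries of that contrast were counted by the same software version. Ctsc, Ctsh and Ctsl were higher at 3 days than at 2 hours. The other genes lay within 2-fold, and Ctsk fell under the filter with 3 and 12 UMIs. Of 8 genes tested, 3 were called higher and none lower, where 21.8% of 7174 genes were called, 13.8% as higher and 7.95% as lower. Their median log2 ratio was 0.68, against 0.21 for all genes. Ctsc stood at 470 CPM in naive monocytes, 154 at 2 hours and 596 at 3 days, and 3 days to 2 hours was 1.95 (1.68 to 2.24). Ctsh stood at 288, 136 and 437 CPM (1.69, 1.40 to 1.99). Ctsl stood at 78.6, 69.2 and 189 CPM (1.45, 1.04 to 1.89). Ctsc and Ctsh were lowest at 2 hours, whereas Ctsl at 2 hours was close to the naive value. Against naive, the 2-hour call for Ctsh was lost with cells called one by one (-0.76) or thinned (-0.87), and the 3-day to 2-hour call for Ctsl was lost with cells called one by one (0.94). The 11 neutrophil markers summed to 1245, 6361.5 and 2296 CPM in naive, 2-hour and 3-day monocytes, and their part in these results was not tested.

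Ctsb and Ctss, the genes with the most UMIs among the 9 in monocytes, moved little. Ctsb stood at 1204, 1423 and 1068 CPM, highest at 2 hours, and Ctss at 1522, 1347 and 1594 CPM. Lgmn was level at 261, 215 and 224 CPM (3 days to 2 hours 0.06, -0.17 to 0.31). Ctsz (460, 296 and 515 CPM) and Ctsd (140, 171 and 252 CPM) were higher at 3 days within 2-fold. Summed over the genes the log2 ratio was 0.35 (0.30 to 0.41). Of 8 genes, 2 were called lower at 2 hours than in the naive library and 0 higher, the lower ones being Ctsc and Ctsh, where 35.7% of genes were called, 26.6% as lower and 9.06% as higher. Only Ctsl was called at 3 days against naive (1.26, higher), where 19.2% of genes were called and 3.18% as higher, and its log2 ratio was 0.90 with short-intron scaling.

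The 3 genes called in the 3-day monocytes belonged to the classical cluster. Against cluster 15 at 2 hours, cluster 7 again had Ctsc (696 against 152 CPM), Ctsh (492 against 134 CPM) and Ctsl (226 against 69.8 CPM) called higher, where 13.9% of genes were. The nonclassical cluster 16 had none of 8 called, where 27.7% of genes were, with Ctsl at 49.8 CPM. Which monocyte kind a library held moved with these genes, and its part in the result was not tested. Within the 3-day library, nonclassical cells had 2104 CPM of Ctsb against 790 CPM in classical cells (1.41, 1.37 to 1.46). They had less Ctsl (49.8 against 226 CPM, -2.18), less Ctsc (224 against 696 CPM, -1.64) and less Ctsh (230 against 492 CPM, -1.10). In that contrast 17.4% of genes were called. Summed levels of the 9 genes were nearly equal in both clusters, at 4879 and 4873 CPM.

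Neutrophils held more transcript of the 9 genes at 3 days than at 2 hours, by 0.74 on the log2 scale (0.69 to 0.79). The 2-hour neutrophils lay in clusters 0 and 5 (2819 and 1225 cells) and nearly all of those at 3 days in cluster 1 (2143 cells). The 11 neutrophil markers summed to 57289.5 and 160029 CPM at 2 hours and 3 days, and the 11 recruited macrophage markers to 7217 and 2255 CPM. The 11 C1q macrophage markers summed to 78.5 and 268 CPM, with 5 and 0 markers at 0, and the 11 alveolar macrophage markers to 73.7 and 63.9 CPM. Classical monocyte markers, 10 in number, summed to 1631 and 1911 CPM, and the 10 nonclassical ones to 1575 and 2640 CPM. Their part in the result was not tested. Ctsd made up between 42.8% and 49.1% of the UMIs in each library and stood at 461 (naive), 423 (2 hours) and 812 CPM (3 days) (3 days to 2 hours 0.94, 0.86 to 1.02). Of 8 genes tested, 3 were called higher and none lower, where 19.8% of 5410 genes were called and 12.8% as higher. Ctsc stood at 28.1, 6.80 and 41.1 CPM (2.60, 2.00 to 3.25), from 63, 24 and 429 UMIs. Ctsl stood at 93.5, 49.0 and 153 CPM (1.64, 1.42 to 1.88). Lgmn stood at 24.9, 10.8 and 22.5 CPM (1.06, 0.57 to 1.60) and rests on 38 UMIs at 2 hours. Its call was lost at a resolution of 1.2 (0.94), with cells called one by one (0.85) and without called doublets (0.89).

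Ctsc and Lgmn were also called lower at 2 hours than in the naive library (-2.04 and -1.21) and none was higher, where 32.7% of genes were called, 23.4% as lower and 9.29% as higher. The call for Lgmn was lost with cells called one by one (-0.41) and without called doublets (-0.98). No gene of the 8 was called between 3 days and naive, where 23.3% were called and 6.94% as higher. Ctsb went its own way, at 174 CPM in the naive library and nearly level at 280 and 276.5 CPM after transplantation. T cells of the 2-hour and 3-day libraries held 9.32 and 21.5 CPM of Lgmn, close to the neutrophil levels. Subtracting the T cell level left 1.44 and 0.990 CPM. For Ctsl the T cell levels were 15.4 and 25.5 CPM, well under the neutrophil levels. For Ctsc they were 34.7 and 63.7 CPM, above the neutrophil levels, and Ctsc is also known from T cells.

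A 3-day cluster of 256 cells (cluster 23) stayed unnamed, since neutrophil markers stood out in it with a median log2 ratio of 0.76 only. It was led by Tnf, Ccl3, Ccrl2, Il1f9 and Il23a, and its 10 top genes held 1 alveolar macrophage marker and 0 neutrophil markers. It held 3436 CPM of the 9 genes against 1650 CPM in the 2143 neutrophils of cluster 1 from the same library (1.06, 1.01 to 1.11). Ctsb stood at 1000.4 against 275 CPM (1.86, 1.76 to 1.97), Ctsz at 667 against 180 CPM (1.89, 1.76 to 2.01) and Ctsc at 91.7 against 41.0 CPM (1.16, 0.83 to 1.48). Ctsl was lower in it at 88.9 against 153 CPM, within 2-fold. In this contrast 30.7% of 6257 genes were called higher, so 3 of 8 genes is near the background. At 2 hours, the neutrophils of cluster 0 (led by Scgb1a1, Cxcl3, Marcksl1, Clec4n and Il1rn) and cluster 5 (led by Ngp, Camp, Ltf, Retnlg and Mmp8) differed past 2-fold in Ctsz alone of 7 genes tested, at 154 and 57.8 CPM (1.41, 1.02 to 1.82), where 7.0% of genes were called.

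**Figure D4:**
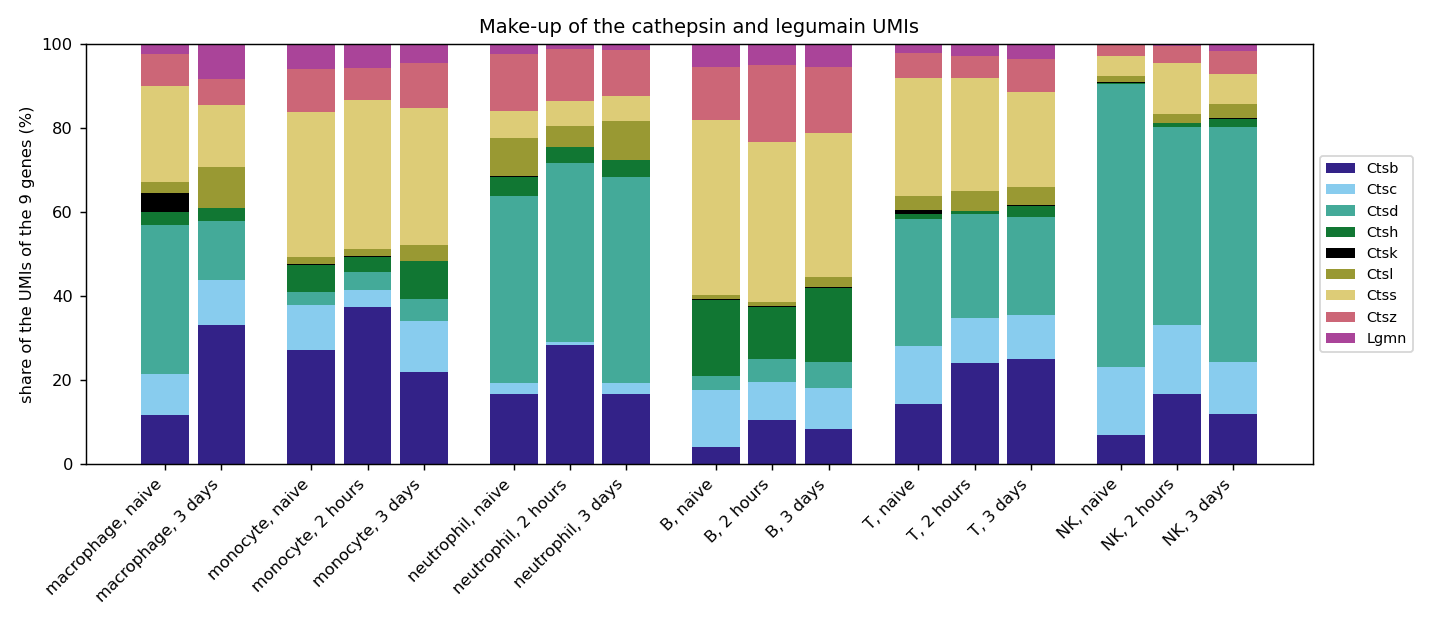
Share (%) of each gene in the UMIs of the 9 genes, 1 bar per lineage and library. Ctsd takes the largest part in neutrophils and NK cells, Ctss in B cells, and Ctsb and Ctss the largest parts in monocytes.

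Summed over the 9 genes, lymphocytes held less than macrophages and monocytes. In T cells the gene with the largest share of the UMIs was Ctsd in the naive library (30.2%), Ctss at 2 hours (26.9%) and Ctsb at 3 days (25.0%). In NK cells Ctsd took 67.2%, 47.1% and 55.8% of the UMIs and stood at 493 (naive), 227 (2 hours) and 591 CPM (3 days). Its level in T cells was 110.1, 80.4 and 143 CPM, and in B cells 26.6, 38.2 and 65.8 CPM, so NK cells were the highest lymphocytes in each library. Monocytes held 140, 171 and 252 CPM of Ctsd, less than NK cells in each library. NK cell Ctsd at 2 hours was called lower than naive (-1.12, -1.32 to -0.92), where 35% of genes were called, 26.5% as lower and 8.43% as higher, and at 3 days called higher than at 2 hours (1.38, 1.18 to 1.59). That was 1 of 4 genes called higher of 7, with none lower, where 19.9% of genes were called, 13.3% as higher and 6.63% as lower. In B cells, which present antigen on MHC class II, Ctss led with 338, 266 and 375 CPM, beside Ctsh with 146, 86.5 and 194 CPM. Ctsh was lower in T cells (3.77, 2.25 and 16.9 CPM) and NK cells (2.81, 4.81 and 21.0 CPM). In B cells Ctsh was called higher at 3 days than at 2 hours (1.17, 0.89 to 1.46). With Ctsl (log2 ratio 1.95) it was 1 of 2 called higher of 8 genes, with none lower, where 19.0% of genes were called, 12.4% as higher and 6.57% as lower. In B cells at 2 hours and 3 days the 9 B cell markers summed to 6124 and 10003 CPM, and the 11 neutrophil markers to 2259 and 1191 CPM. The 11 C1q macrophage markers summed to 268 and 385 CPM there, and the 11 recruited macrophage markers to 283 and 342 CPM. The part of these values in the B cell calls was not tested. Between 2 hours and naive B cells, Ctsb alone of 7 genes was called (33.5 and 73.3 CPM, higher), where 38.3% of genes were called and 8.70% as higher. That call was lost with cells called one by one (0.54), without called doublets (0.98), as a mean over cells (0.88) and with short-intron scaling (0.55). In T cells none of 6 genes was called between those libraries, where 34.1% of genes were called and 7.18% as higher. At 3 days against 2 hours, Ctsz (17.4 and 48.2 CPM) and Lgmn (9.32 and 21.5 CPM) were the 2 called higher of 7 in T cells, with none lower, where 16.2% of genes were called, 9.81% as higher and 6.43% as lower. With cells called one by one neither was past 2-fold (Ctsz 0.55, Lgmn 0.27), and Lgmn was also within it when clustered with the 9 genes (0.32), as a mean over cells (0.88) or thinned (0.51). The 11 C1q macrophage markers summed to 18.6 and 205 CPM in these T cells, and the 11 alveolar macrophage markers to 10.3 and 40.3 CPM. The 11 recruited macrophage markers were level at 294 and 289 CPM, and the 11 neutrophil markers fell from 1778 to 1336 CPM. The part of these transcripts in the result was not tested.

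Between the naive and 3-day libraries Ctsb was the gene called higher in B, T and NK cells alike. In NK cells 6 of 8 genes were called higher, where 20.7% of genes were called and 4.31% as higher. In T cells the count was 4 of 8, where 20.2% of genes were called and 2.87% as higher. In B cells it was 3 of 8, where 22.1% were called, 3.06% as higher and 19.1% as lower. None of the 8 was called lower in these lineages. The largest ratio in T cells (2.16) and in NK cells (2.90) was that of Ctsh, from 3.77 to 16.9 CPM and from 2.81 to 21.0 CPM. Ctsb stood at 50.8 and 126 CPM in NK cells (1.31), 52.3 and 153 CPM in T cells (1.55), and 33.5 and 91.8 CPM in B cells (1.46). In the same libraries, the summed C1q and recruited macrophage markers were also higher in these cells at 3 days, and the alveolar macrophage markers lower. The 11 C1q macrophage markers summed to 16.1 CPM in naive NK cells and 205 CPM at 3 days, with 5 markers at 0 and 1 marker at 0. They summed to 15.1 and 205 CPM in T cells, with 4 and 0 markers at 0, and to 334 and 385 CPM in B cells, with 3 and 0 at 0. The 11 recruited macrophage markers summed to 36.3 and 362 CPM in NK cells, 48.9 and 289 CPM in T cells, and 25.5 and 342 CPM in B cells. The 11 alveolar macrophage markers summed to 54.5 and 49.1 CPM in NK cells and 53.3 and 40.3 CPM in T cells. In B cells they summed to 60.1 and 25.4 CPM. Neutrophil markers, 11 in number, summed to 394 and 4265 CPM in NK cells and 734 and 1336 CPM in T cells. Their sums in B cells were 261 and 1191 CPM.

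Called doublets held 36.5% of the Ctsb UMIs of 3-day NK cells, 10.5% of those of T cells and 21.8% of those of B cells. They were 8.84%, 4.47% and 1.83% of the cells of these lineages. Without them Ctsb was 95.4 CPM in NK cells, within 2-fold of the naive level of 51.4 CPM. In T cells it was 147 CPM without doublets, but 88.5 CPM where the 9 genes were among the clustering features and 84.7 CPM where cells were called one by one, both within 2-fold of naive. The T cell calls for Ctsz and Lgmn were lost with cells called one by one (0.64 and 0.38). They were also lost when clustered with the 9 genes (0.75 and 0.58). In B cells, short-intron scaling brought Ctsb to 0.97 and Ctsd to 0.82. Ctss in NK cells was within 2-fold without called doublets (0.57) and with cells called one by one (0.31). Called doublets held 52.4% of the Ctsh UMIs and 45.7% of the Ctsz UMIs of 3-day NK cells. Without them Ctsh stood at 2.38 CPM in naive NK cells and 11.9 CPM at 3 days. The part of macrophage or neutrophil RNA and of doublets in these lymphocyte differences was not tested further.

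Other lysosomal genes were counted from lists, without short-intron scaling. Beside every macrophage list below, 34.9% of all genes were called, 11.4% as higher and 23.6% as lower. The median log2 ratio of all genes there was -0.23. In macrophages at 3 days against naive, 18 other hydrolases and their activators gave 3 called higher, 3 lower and 12 within 2-fold, with a median log2 ratio of 0.12. Among the lower ones the phospholipase gene Pla2g15 stood at 118 CPM in naive macrophages and 34.7 CPM at 3 days (-1.76). Of 16 subunits of the V-ATPase, the pump that acidifies lysosomes, none was called higher, 2 were lower and 14 lay within 2-fold. The largest difference was Atp6v0d2, at 915 and 2.36 CPM (-8.60), a leading gene of the alveolar cluster, and Atp6v1b2 followed at 499 and 224 CPM (-1.16). Of 8 lysosomal membrane genes 1 was higher and 1 lower, Lamp2 at 331 and 759 CPM and Scarb2, the receptor that carries glucocerebrosidase, at 339 and 113 CPM (-1.58).

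The sorting genes, whose products carry new enzymes to the lysosome, gave 1 higher and 2 lower of 6. Igf2r, a mannose 6-phosphate receptor, had 2 UMIs in naive macrophages and 510 at 3 days (0.980 and 54.7 CPM, 5.80), nearly all in the recruited cluster. Sort1 stood at 360.0 and 22.1 CPM (-4.03). Of the 4 MiT transcription factor genes, Tfeb (120 and 10.7 CPM, -3.48), Tfec (207 and 20.9 CPM, -3.31) and Mitf (515 and 61.2 CPM, -3.07) were lower. Tfe3 was within 2-fold at 77.9 and 125 CPM. In monocytes at 3 days against naive, 2 of 3 MiT genes past the filter were called lower (median log2 ratio -1.80). There 16% of all genes were called lower. At 3 days against 2 hours, where the software version was the same, 0 of 3 were lower in monocytes. The part of counting software in these differences was not tested. Among protease inhibitors, 2 of 8 passed the filter, with Cst3, for cystatin C, called higher (491 and 1135 CPM, 1.21) and Cstb within 2-fold (492 and 801 CPM). The shift of -0.42 by short-intron scaling takes Cst3, and Lamp2 above, within 2-fold. Of 6 other cathepsins 4 passed the filter. Ctse had 0 UMIs in naive macrophages, where 3 UMIs would be 1.47 CPM, and 200 UMIs (21.5 CPM) at 3 days, and Ctsf was lower at 21.6 and 3.00 CPM (-2.84). The MHC class II list had 3 of 6 called higher, with H2-Ab1 (400 and 1221 CPM, 1.61) and H2-Eb1 (334 and 993 CPM, 1.57) first. Among serine proteases activated by cathepsin C, 2 of 5 passed, with Prtn3 at 3.43 and 58.9 CPM (4.10) and Gzma at 33.3 and 9.87 CPM (-1.75). Gzma is also 1 of the 9 NK cell markers, which summed to 52.9 and 24.9 CPM in naive and 3-day macrophages. The part of NK cell RNA in that difference was not tested.

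In monocytes at 3 days against 2 hours the list of other hydrolases gave 8 of 18 higher and none lower, with a median of 0.86 against 0.21 for all genes. Beside every monocyte list, 21.8% of all genes were called, 13.8% as higher and 7.95% as lower. Among the higher ones Gusb, for beta-glucuronidase, stood at 48.0 and 149 CPM (1.64). The MHC class II list gave 5 of 6 higher, with H2-Ab1 at 93.2 and 477 CPM (2.36) and H2-Eb1 at 67.8 and 266 CPM (1.97). V-ATPase subunits gave 2 higher and 1 lower of 15, with Atp6v0a1 at 55.0 and 14.4 CPM (-1.93) and Atp6v1b2 at 88.9 and 184 CPM (1.05). Of 7 lysosomal membrane genes 1 was higher, Npc1 (26.8 and 58.3 CPM, 1.12), with Cd63 next in size (24.0 and 12.4 CPM, -0.95). In the sorting list 1 of 6 was lower, Igf2r (15.5 and 7.43 CPM, -1.06), and Gnptab was next (15.5 and 28.7 CPM, 0.89). Of 3 MiT genes past the filter Tfeb was higher (8.47 and 24.4 CPM, 1.53) and Tfe3 within 2-fold (70.6 and 82.3 CPM). Ctsa was the only other cathepsin called of 3 (200.4 and 401 CPM), with Ctso beside it at 11.3 and 22.5 CPM (0.99). Of 3 protease inhibitors that passed, Stfa2l1 was lower (55.0 and 17.6 CPM, -1.65) and Cstb within 2-fold (181 and 293 CPM, 0.70). Stfa2l1 was also a leading gene of neutrophil cluster 1. The 11 neutrophil markers summed to 6361.5 and 2296 CPM in these monocytes at 2 hours and 3 days. The part of neutrophil RNA in the Stfa2l1 difference was not tested. The 1 serine protease past the filter was Prtn3, at 15.5 and 47.8 CPM (1.62). At 3 days against naive, 0 of 17 other hydrolases and 0 of 6 MHC class II genes were called in monocytes, where 19.2% of all genes were. The 2-hour cells were nearest to nonclassical monocytes, while most 3-day monocytes were classical. The part of monocyte kind in these list results was not tested.

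**Figure D5:**
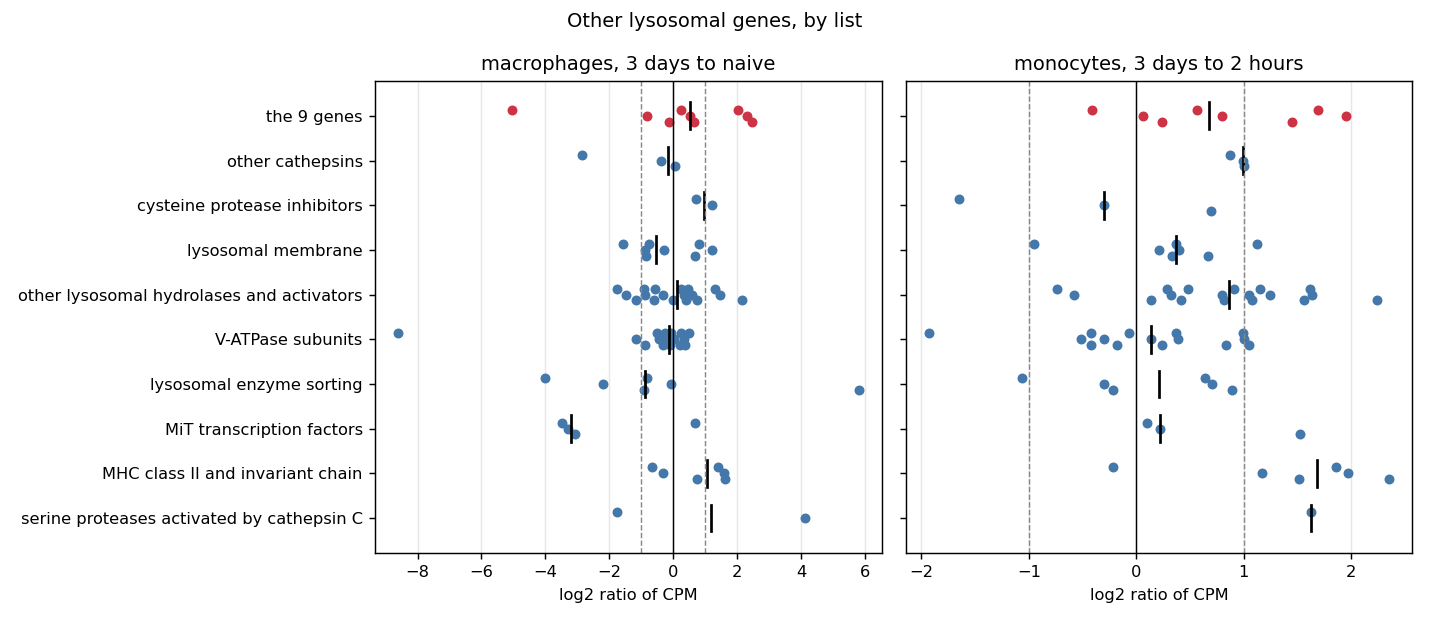
Log2 ratios of CPM for genes that passed the filter on low values, by list, in macrophages (3 days to naive) and monocytes (3 days to 2 hours); each point is a gene, black bars are medians, dashed lines mark 2-fold, and the scales of the panels differ. Ctse in macrophages has no point, since its naive count was 0, and Atp6v0d2 lies farthest out at -8.60.

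The genes closest to the other members over the 17 sums, by Pearson's r of log2(CPM + 10) among 4206 genes, are given by member. Ctsb was closest to Psap (0.964), Capza2 (0.960) and Lamp1 (0.957), of which Psap and Lamp1 are lysosomal. Ctsl was closest to Adam15 (0.960), Grn (0.939) and Surf4 (0.937), and Lgmn to Gm6377 (0.960), Apoe (0.951) and Pltp (0.948). Ctss was closest to Klf4, Pld4 and Ifi30, at 0.948 to 0.958. Ctsz was closest to Cybb, Apoe and Plekho2 (0.922 to 0.962), and Ctsh to Unc93b1, Cybb and Apoe (0.940 to 0.949). Ctsc was closest to Sh3bgrl, Uqcr11 and Api5 (0.961 to 0.969). The best match of Ctsd was weaker, with Icam1 (0.921), Wdr1 (0.916) and Abhd5 (0.894). The sums share libraries and depth, and these values are descriptions.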

How the data were processed

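The authors deposited unnormalized UMI counts per gene and droplet called as a cell, written by Cell Ranger 7.1.0 (naive) or 6.0.0 per the file headers. The submitters' processing notes name mm10. Intron counting was not stated in any source used, and the kit is unsettled, since labels and methods differ on 5′ or 3′ chemistry. The antibody counts also deposited for the transplants are outside the comparisons.

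Filters kept cells of more than 200 but fewer than 6000 genes, fewer than 25000 UMIs and a mitochondrial share below 10%. Seurat 5.3.0 and sctransform 0.4.2 in R 4.3.3 gave 30 principal components and clusters at a resolution of 0.8. A cluster took a name where the median log2 ratio of its markers and at least 3 of them exceeded 1 and no other class led its 10 top genes. B cells whose Jchain share reached 1% were left out. Scrublet (scanpy 1.11.5) called 53, 416 and 300 doublets, which were removed only in an alternative. UMIs were summed per lineage and library. Intervals are exact (Poisson for levels, Clopper-Pearson for shares, conditional on the total count for ratios) and cover counting error only. On simulated macrophage sums of 7953 genes, 200 of them raised by 1 on the log2 scale, the median recovered came to 0.98, and the intervals covered the truth for 95.6% of genes. Genes named from lists were the 2 with the largest ratio per list in macrophages and monocytes, with others named for context, and the 3 closest genes per member; some genes these rules select are not reported here. The members and lists were chosen with earlier results of these data known.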

Additional observations from a re-analysis of the deposited data

How the results depend on the processing

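The log2 ratio of the summed genes kept its sign in every alternative run. In macrophages (3 days to naive, 0.52 as reported) it was 0.36 without upper limits on genes and UMIs, 0.61 with cells called one by one from markers, 0.62 as a mean over cells of counts per 10000, 0.63 thinned to 500 UMIs, 0.55 outside ribosomal protein and mitochondrial genes and 0.091 with CPM over genes with under 10 kb of intron. In monocytes (3 days to 2 hours, 0.35) it was 0.46 without upper limits, 0.45 outside ribosomal protein and mitochondrial genes, 0.42 over genes with short introns and 0.29 after subtracting the CPM of T cells. In neutrophils (0.74) it was 0.61 at a resolution of 1.2, 0.90 with cells called one by one, 0.88 as a mean over cells, 0.91 thinned and 0.61 after subtracting T cells. The count of genes past 2-fold in neutrophils, 3 as reported, was 6 at a threshold of 1.5-fold, 5 as a mean over cells, 6 thinned and 1 after subtracting T cells. In macrophages and monocytes the counts stayed within 1.5 times of the reported 4 and 3. Shares of all genes called are given for the reported setting only. Counts under the alternatives thus have no background beside them and are not read as results about the 9 genes. Of 38 ratios of single genes past 2-fold, 18 had a value after subtracting T cells and 34 when thinned. Among the 18, Lgmn in neutrophils (3 days to 2 hours) changed sign (-0.54), and among the 34, Ctss in NK cells (3 days to naive) did (-0.19). Still past 2-fold were 26 of 38 with cells called one by one, 33 without called doublets, 34 when clustered with the 9 genes and 31 with short-intron scaling. The cause was not tested. No paired analysis was possible because each group is a single library. The 2-hour library limits the low genes most, since 3 UMIs equal 4.23 CPM in its monocytes.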

Other observations

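Dendritic cells, a cluster of 22, 69 and 114 cells with plasmacytoid and conventional markers, had 512, 200.3 and 588 CPM of Ctsh in the naive, 2-hour and 3-day libraries, and 870, 773 and 1121 CPM of Ctss. Basophils or mast cells (20, 67 and 112 cells) had Ctsd as the gene with the most UMIs in the naive and 3-day libraries, at 410 and 509 CPM, and at 2 hours Ctsc and Ctsd with 21 and 18 UMIs. Their Ctsk count was 0 in all 3 libraries, where 3 UMIs would be 18.9, 33.9 and 4.33 CPM. The antibody panel of the transplant libraries held 6 and 24 UMIs of CD107a, which is the lysosomal protein LAMP-1, at 2 hours and 3 days, below the lowest of 9 isotype controls (136 and 312 UMIs).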
